A study of Mus musculus with 18 samples.

Results

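Expression of 10 genes of the Wnt pathway was followed across 18 mammary arrays: the ligands Wnt2, Wnt5a, Wnt5b, Wnt6, Wnt7b and Wnt10a, the secreted inhibitor Sfrp1, and the target genes Axin2, Lgr5 and Lef1. They were taken as a named list, chosen with earlier results of these data known, so counts of calls among them are no test of the pathway. All 10 were among the 27030 genes measured, each by 1 transcript cluster, the set of probes that the array assigns to a gene. RNA was profiled on whole-transcript microarrays from mammary tissue of female C57Bl/6 mice, with 6 arrays for each of 3 groups. M/D-driven tumors were taken at a size of 0.7 to 1 cm2 from mice given the progestin medroxyprogesterone acetate (MPA) and the carcinogen 7,12-dimethylbenz[a]anthracene (DMBA). The MPA came from a subcutaneous pellet of 50 mg with release over 90 days, implanted at 6 to 9 weeks of age, and DMBA by 6 gavages, each of 200 µL of a 5 mg/mL solution. Hyperplastic glands went through the same M/D protocol and formed no tumor, and whether they came from other mice than the tumors is not given. Normal glands came from M/D-naïve mice whose age the labels do not give. No mouse is named behind an array, so the p-values cover only the spread between these samples, which may be partly technical. Every value below is a log2 expression value of robust multi-array averaging (RMA), on which a step of 1 is a doubling, and a level refers to 1 gene only and is not set against the level of another gene.

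Wnt proteins are secreted lipid-modified ligands that bind Frizzled receptors. In the canonical branch they spare beta-catenin from destruction, and beta-catenin then acts with the DNA-binding factors of the TCF/LEF family on genes such as Axin2. Other ligands, Wnt5a being the standard example, act mostly through Ror receptors and cell polarity. In the mammary gland Wnt signals take part in branching and in the upkeep of stem-like basal cells, and Wnt1 was first found as a gene activated in mouse mammary tumors.

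Tumors differed from normal glands at most of the 10 genes, in both directions. Wnt5a, Wnt6, Wnt7b, Wnt10a and Sfrp1 were higher in tumors, and Lef1, Lgr5 and Wnt2 were lower, at an adjusted p under 0.05 (limma, two-sided, Benjamini-Hochberg over all 27030 genes). Of the 10 genes 5 were called higher, where 19.5% of all genes were, and 3 were called lower, where 12.7% of all genes were. Against hyperplastic glands 3 of the 10 were higher in tumors (Wnt5a, Wnt6 and Wnt7b; 11.9% of all genes) and 1 was lower (Lef1; 8.57% of all genes). Both sets of calls use the same 6 tumors. Between hyperplastic and normal glands limma called 0 of the 10 genes, beside 1.01% of all genes called higher and 0.655% called lower, and 0 of the 10 had an unadjusted p under 0.05, beside 13.6% of all genes. With centring on 7 reference genes, which lowers the share of higher calls over all genes, the 10 genes gave 3 higher and 3 lower against normal glands. Over all genes 3068 were then higher and 4836 lower.

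The array medians lay between 5.31 and 5.51, but RMA gives all arrays the same distribution, so this says nothing of how alike the samples were. All 8 luminal and 7 basal epithelial markers measured were above the detection level in every array. Besides the markers given with each gene, all 5 B cell markers and all 7 fat cell markers were lower in tumors, and all 5 cell division genes were higher. Tumors 3 and 6 and hyperplastic gland 3 stood apart in their markers, as given with the genes, and without these 3 arrays the counts of the 10 genes were 4 higher and 4 lower against normal glands, and 4 higher and 2 lower against hyperplastic glands. Axin2, with its highest value in tumor 6, was then called lower in both comparisons. Sfrp1, with its lowest tumor values in tumors 3 and 6, was called higher in both, and Wnt10a was called in neither. The 3 arrays were left out after the data were seen, so these calls are no test.

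**Figure D1:**
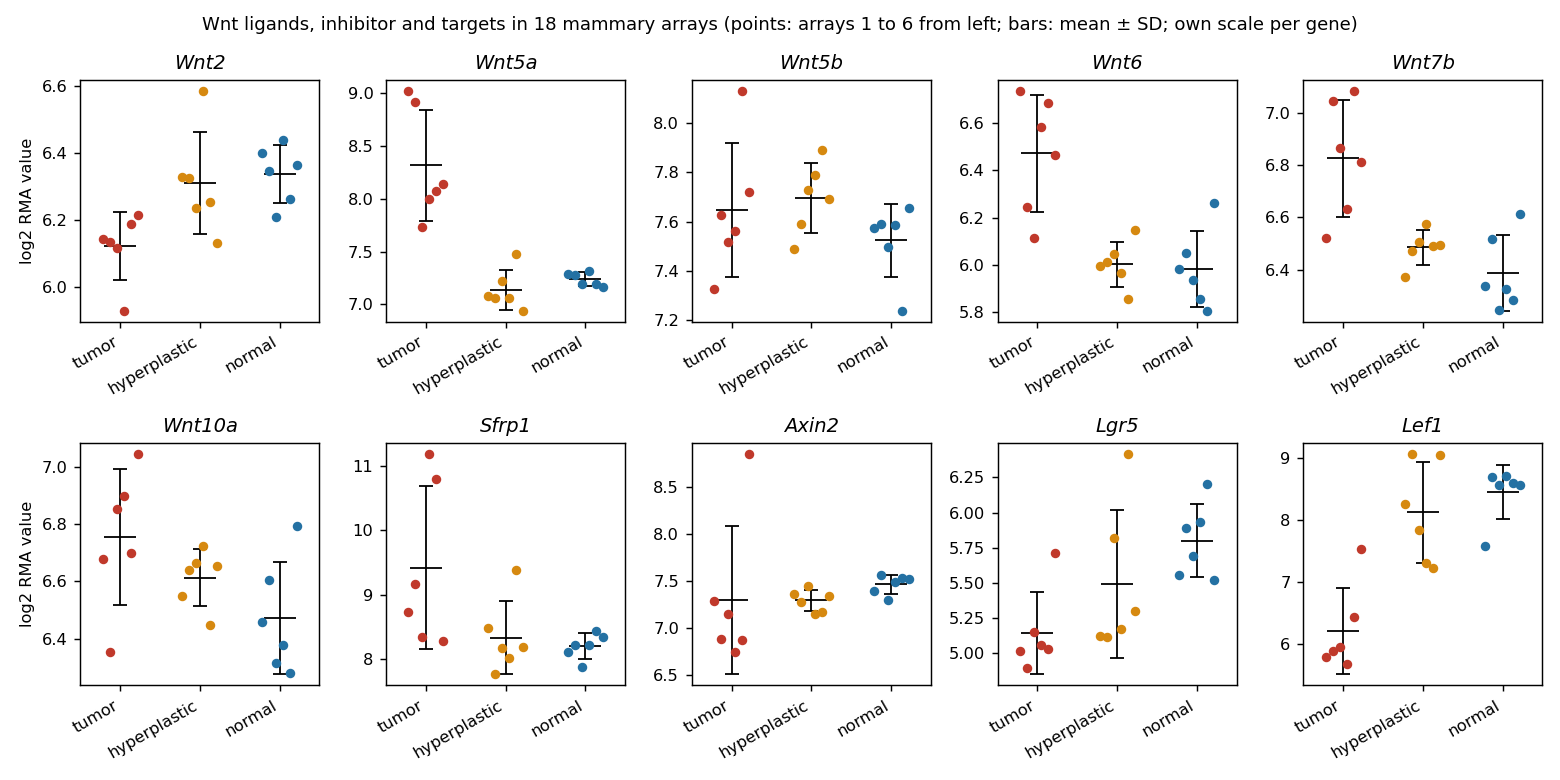
Log2 RMA values of the 10 Wnt genes (vertical axes, own scale for each gene) in 6 tumors, 6 hyperplastic glands and 6 normal glands; points are arrays 1 to 6 from left to right, and bars give the mean ± SD. Wnt5a in all 6 tumors lay above every other array, Lef1 in all 6 tumors lay below every normal gland, and 1 tumor stood far above the rest at Axin2.

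Among the ligands, Wnt5a had the largest difference. Its values in tumors 1 to 6 were 9.02, 8.92, 7.74, 8.0, 8.08 and 8.14. In hyperplastic glands 1 to 6 they were 7.08, 7.06, 7.22, 7.06, 7.48 and 6.94, and in normal glands 1 to 6 they were 7.29, 7.28, 7.19, 7.32, 7.20 and 7.17. Tumors 1 and 2 were the highest, and every tumor lay above every other array. The difference was 1.08 ± 0.18 (log2, SE) from normal glands, a 2.11-fold higher level (limma adjusted p = 0.000124), and 1.18 ± 0.18 from hyperplastic glands (adjusted p = 0.00014). Wnt5a was the 1 gene of the 10 whose groups did not overlap in the higher direction, both against normal glands (9.24% of all genes) and against hyperplastic glands (4.99% of all genes). Tumors are a mixture of cells, and in such bulk samples fewer cells of a type and less RNA per cell cannot be told apart.

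Wnt6 was higher in tumors by a smaller step. Tumors 1 to 6 had values of 6.74, 6.25, 6.11, 6.58, 6.68 and 6.46, hyperplastic glands stayed between 5.86 and 6.15, and normal glands between 5.81 and 6.26. Tumors 2 and 3 lay under the highest normal gland, while the other 4 lay clear of both other groups. Wnt6 was 0.49 ± 0.10 higher than in normal glands (limma adjusted p = 0.000904) and 0.47 ± 0.10 higher than in hyperplastic glands (adjusted p = 0.00263). In the RefSeq gene table Wnt6 and Wnt10a stand near each other on chromosome 1, with 2 predicted genes between them.

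Wnt7b, a ligand best known from lung and kidney development, was higher in tumors against both other groups. Its values in tumors 1 to 6 were 6.52, 7.05, 6.87, 6.63, 7.09 and 6.81, with hyperplastic glands between 6.37 and 6.58 and normal glands between 6.25 and 6.61. Only tumor 1 lay inside the range of the hyperplastic and normal glands. The difference from normal glands was 0.44 ± 0.09 (limma adjusted p = 0.000825), and that from hyperplastic glands was 0.34 ± 0.09 (adjusted p = 0.00994).

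Wnt10a and Wnt2 moved least among the ligands that were called. Wnt10a, a canonical ligand of skin appendages, had values of 6.68, 6.35, 6.85, 6.90, 6.70 and 7.04 in tumors 1 to 6, against 6.28 to 6.79 in normal glands. Its difference from normal glands was 0.28 ± 0.10 (limma adjusted p = 0.0447), the weakest call of the 10 genes, and the groups overlapped. The call ended without any 1 of 14 arrays (tumors 1, 3, 4, 5 and 6, hyperplastic glands 1, 2, 3, 4 and 6, and normal glands 1, 3, 4 and 5), with adjusted p between 0.0503 and 0.106. The difference of Wnt10a from hyperplastic glands was 0.14 ± 0.10 (adjusted p = 0.391, 95% interval -0.08 to 0.36).

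Wnt2, a canonical ligand known from lung development, was the only ligand of the 6 called lower. Its tumor values were 6.14, 6.14, 6.12, 5.93, 6.19 and 6.22, against 6.40, 6.35, 6.21, 6.44, 6.26 and 6.36 in normal glands. All 6 tumors lay under the normal mean, and tumor 6 overlapped the lowest normal gland. The difference was -0.22 ± 0.07 (limma adjusted p = 0.0203), and it missed the threshold without tumor 4, at -0.18 (adjusted p = 0.0531). Against hyperplastic glands Wnt2 stood at -0.19 ± 0.07 (adjusted p = 0.0575), and it passed the threshold without tumor 6 (adjusted p = 0.0471) or without hyperplastic gland 6 (adjusted p = 0.0289). Fibroblast markers were split: 3 of the 6 measured were lower in tumors than in normal glands and 3 were not called. Every tumor lay under every normal gland at Dcn, Lum and Dpt. The means of Col1a1, Col1a2 and Col3a1 were 11.2, 10.7 and 10.8 in tumors and 10.9, 10.8 and 11.1 in normal glands. The mean of the list ran from 9.88 to 10.66 in tumors and from 11.06 to 11.42 in normal glands. The part of these markers in the Wnt2 values was not tested.

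Wnt5b, the close relative of Wnt5a, was called in no comparison. Its values ran from 7.33 to 8.13 in tumors with a median of 7.59, from 7.49 to 7.89 in hyperplastic glands and from 7.24 to 7.65 in normal glands. The difference from normal glands was 0.12 ± 0.11 (95% interval -0.10 to 0.35, limma adjusted p = 0.429), and that from hyperplastic glands was -0.05 ± 0.11 (95% interval -0.28 to 0.18).

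**Figure D2:**
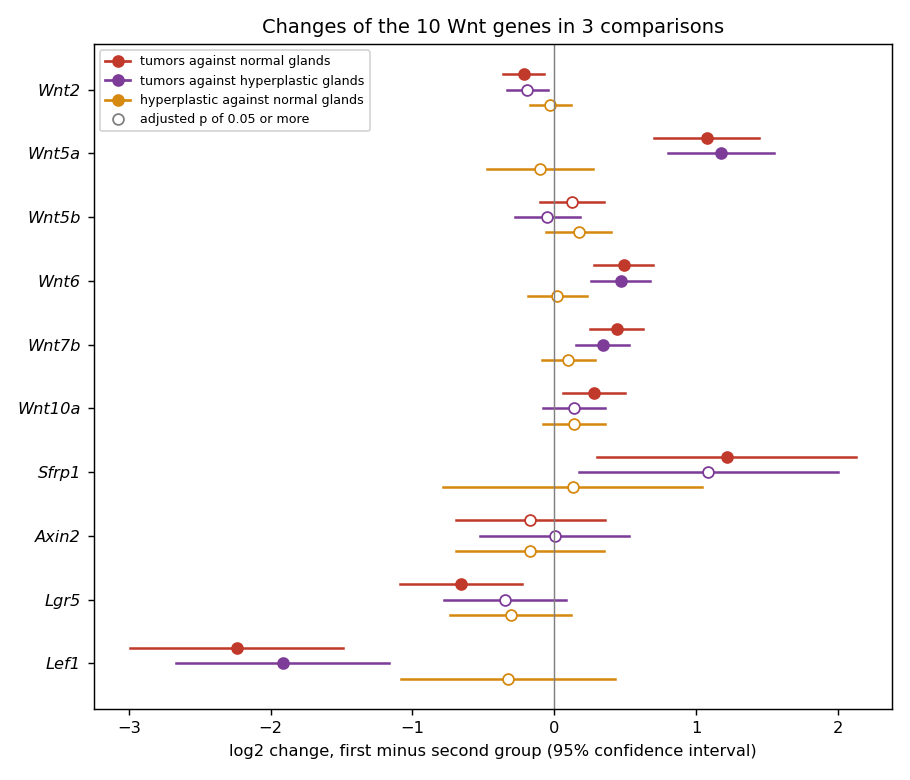
Log2 change (horizontal axis) of each of the 10 Wnt genes with its 95% confidence interval, for tumors against normal glands, tumors against hyperplastic glands and hyperplastic against normal glands; filled points passed an adjusted p of 0.05 in limma. The intervals of Wnt5a, Wnt6, Wnt7b and Sfrp1 lie above 0 and those of Lef1 and Wnt2 below 0 in both tumor comparisons, of which Sfrp1 and Wnt2 missed the adjusted threshold against hyperplastic glands, while every interval of hyperplastic against normal glands spans 0.

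Sfrp1, a secreted Frizzled-related protein that binds Wnt ligands outside the cell, had the widest spread of the 10 genes among tumors. Tumors 1 to 6 had values of 8.73, 9.16, 8.34, 11.19, 10.80 and 8.28. Hyperplastic glands had 8.48, 7.76, 8.17, 8.02, 9.38 and 8.18, and normal glands had 8.11, 8.22, 7.88, 8.22, 8.43 and 8.35. Tumors 4 and 5 lay over 1 log2 unit above all other arrays, whereas tumors 3 and 6 lay within the range of the normal glands. The mean difference from normal glands was 1.22 ± 0.43 (limma adjusted p = 0.0395), and that from hyperplastic glands was 1.09 ± 0.43 (adjusted p = 0.0895).

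The Sfrp1 call against normal glands rested on few arrays. It was lost without tumor 4 (difference 0.86, adjusted p = 0.092), without tumor 5 (0.94, adjusted p = 0.0946) and without any 1 of the 6 normal glands (adjusted p 0.0509 to 0.076). Against hyperplastic glands Sfrp1 passed without tumor 3 (adjusted p = 0.039), tumor 6 (adjusted p = 0.037) or hyperplastic gland 5 (adjusted p = 0.0486). Basal epithelial markers were high on average in the same tumors: the mean of the 7 measured was 9.84 in tumor 4 and 10.42 in tumor 5, the highest of the tumors, against 8.79 to 9.01 in normal glands. It was 7.52 in tumor 3, which had the lowest luminal markers as well (7.84) and skeletal muscle markers at 9.47, the highest of the tumors. Of the 7 basal markers 2 were called higher and 0 lower in tumors than in normal glands. Among them Oxtr went the other way in tumor 4, at 8.25 against 9.29 to 9.72 in normal glands. The luminal mean was 9.99 in tumor 4 and 10.34 in tumor 5, and highest in tumor 2 at 10.52, against 8.91 to 9.15 in normal glands. The part of these markers in the Sfrp1 values was not tested.

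Axin2 encodes a scaffold of the beta-catenin destruction complex and is itself switched on by beta-catenin, so it is widely read as a target of canonical Wnt signalling. Its values in tumors 1 to 6 were 7.28, 6.88, 7.15, 6.74, 6.87 and 8.85. In hyperplastic glands they ran from 7.15 to 7.45, and in normal glands from 7.30 to 7.56. Tumor 6 was the highest of all 18 arrays, 1.57 above the next tumor, and the other 5 tumors lay under every normal gland. Over all 6 tumors limma called no difference from normal glands (-0.17 ± 0.25, adjusted p = 0.659, 95% interval -0.69 to 0.36) or from hyperplastic glands (0.00 ± 0.25, adjusted p = 0.994, 95% interval -0.52 to 0.53). Without tumor 6 Axin2 was lower in the remaining tumors than in normal glands, at a difference of -0.48 (adjusted p = 0.000441), and lower than in hyperplastic glands, at a difference of -0.31 (adjusted p = 0.0187). Tumor 6 holds the highest Axin2 value, so leaving it out lowers both the mean and the spread by that choice. These calls are therefore no test of Axin2 in tumors.

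Lgr5 encodes an R-spondin receptor that marks stem cells in several epithelia. Tumors 1 to 6 had values of 5.02, 4.89, 5.15, 5.06, 5.03 and 5.71, hyperplastic glands 5.12, 5.12, 5.82, 5.17, 6.42 and 5.30, and normal glands 5.55, 5.89, 5.69, 5.93, 6.20 and 5.52. The detection level used here, 5.36, lies above the average of 95% of 1078 genes for olfactory receptors, genes that the mammary gland has little use for. Of the 6 tumors 5 lay under that level, and of the 6 hyperplastic glands 4 lay there, so the size of the difference is a low estimate. Lgr5 was lower in tumors than in normal glands, at a difference of -0.66 ± 0.20 (limma adjusted p = 0.0189), and the difference from hyperplastic glands was -0.35 ± 0.20 (adjusted p = 0.268).

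Lef1 encodes a TCF/LEF factor that serves Wnt signalling in epithelia and is also strongly used by T cells and their precursors. It had the largest change of the 10 genes. Tumors 1 to 6 had values of 5.80, 5.89, 5.96, 5.68, 6.44 and 7.53, hyperplastic glands 8.27, 9.07, 7.84, 7.31, 7.24 and 9.06, and normal glands 7.59, 8.70, 8.57, 8.72, 8.59 and 8.57. The tumors did not overlap the normal glands, the 1 gene of the 10 that stood apart in the lower direction (7.00% of all genes), while tumor 6 overlapped hyperplastic glands 4 and 5, and 0 of the 10 genes stood apart from hyperplastic glands in that direction (4.05% of all genes). The difference was -2.24 ± 0.36 from normal glands, a 4.72-fold lower level (limma adjusted p = 9.8e-05), and -1.92 ± 0.36 from hyperplastic glands (adjusted p = 0.000947).

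T cell markers moved with Lef1. All 6 measured (Cd3d, Cd3e, Cd3g, Cd4, Cd8a and Cd28) were lower in tumors than in normal glands and than in hyperplastic glands. Their mean per array ran from 5.98 to 6.81 in tumors, from 7.36 to 8.78 in hyperplastic glands and from 7.35 to 8.27 in normal glands. The lowest normal gland for Lef1, number 1, was also the lowest for T cell markers (7.35), and hyperplastic glands 2 and 6 were the highest for both. B cell markers had the same order, so it was not particular to T cells. Their mean was 7.96 in normal gland 1, 9.06 and 9.03 in hyperplastic glands 2 and 6, and 5.81 to 6.88 in tumors. Tumor 6 did not follow: its T cell mean of 6.18 lay among the other tumors, while its Lef1 value lay 1.10 above the next tumor. The part of T cells or B cells in the Lef1 values was not tested.

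**Figure D3:**
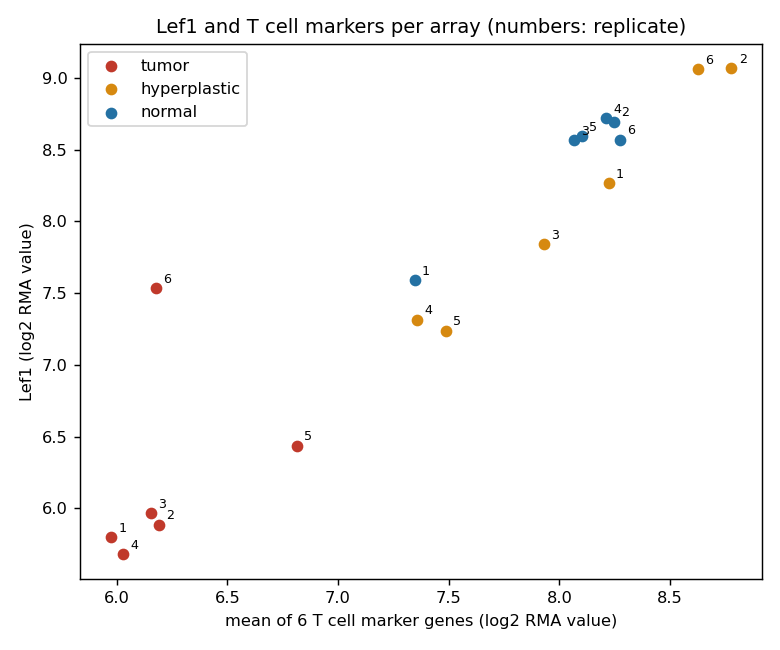
Lef1 (vertical axis, log2 RMA value) against the mean of 6 T cell marker genes (horizontal axis, log2 RMA value) in each of 18 arrays, with the replicate number beside each point. Tumors lie at the lower left, hyperplastic and normal glands at the upper right, and tumor 6 stands above the other tumors at a T cell mean of 6.18.

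The 3 of the 10 genes whose group means span over 1 log2 unit (Wnt5a, Sfrp1 and Lef1) were set against all 17048 other genes above the detection level, by the root mean square difference of values centred on each gene's mean over the 18 arrays. Nearest to Wnt5a were Mex3a (0.225), G2e3 (0.265) and Gm23143 (0.270). Nearest to Sfrp1 were Ceacam20 (0.374), Casq2 (0.380) and Col11a1 (0.422). Nearest to Lef1 were Gimap8 (0.299), a lymphocyte GTPase, Cyfip2 (0.308) and Gm8995 (0.346). These are descriptions of likeness over arrays that share 1 normalization.

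Promoter windows are shown for the target genes because TCF/LEF factors bind the letters CTTTG followed by a pair of letters that are each A or T, searched here on both strands. A window holds 250 bases before and 50 bases after a start site in RefSeq, build GRCm38.p6. Of all 32851 windows 16.9% held a match. Of the 10 genes 5 had a window, 10 windows in all, and 2 of those held a match, 1 of the 4 of Lef1 and 1 of the 3 of Wnt5b, while none was found in those of Axin2, Wnt2 or Wnt6. The Axin2 window is printed as that of the most used target, and the matching windows of Lef1 and Wnt5b because they hold the letters. A matching window of Tnfrsf19, a gene that stood out in single tumors as described next, was chosen after its values were seen. The other Tnfrsf19 window and those of Nkd1, Nkd2, Wif1, Wnt1 and Lgr6, which stood out as well, held 0 matches. Of 50 windows of 45 other Wnt genes, 6 held a match. Each printed window is written 5′ to 3′ on the strand of the gene, with the match in capitals. The windows are chr11:108920099-108920398 on the plus strand for Axin2, chr3:131156044-131156343 on the plus strand for Lef1, chr6:119449337-119449636 on the minus strand for Wnt5b and chr14:61037938-61038237 on the minus strand for Tnfrsf19.
Axin2: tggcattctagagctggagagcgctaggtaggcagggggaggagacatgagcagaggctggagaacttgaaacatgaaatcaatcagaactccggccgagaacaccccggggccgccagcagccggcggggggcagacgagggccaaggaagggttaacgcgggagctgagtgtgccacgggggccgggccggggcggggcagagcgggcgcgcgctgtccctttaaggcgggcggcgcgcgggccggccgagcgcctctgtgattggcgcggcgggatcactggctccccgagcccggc
Lef1: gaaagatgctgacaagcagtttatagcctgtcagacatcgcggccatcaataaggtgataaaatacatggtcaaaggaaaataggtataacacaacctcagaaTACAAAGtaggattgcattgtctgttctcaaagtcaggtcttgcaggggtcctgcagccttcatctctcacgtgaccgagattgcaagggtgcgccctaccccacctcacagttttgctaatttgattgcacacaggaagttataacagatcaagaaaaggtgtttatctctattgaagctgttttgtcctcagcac
Wnt5b: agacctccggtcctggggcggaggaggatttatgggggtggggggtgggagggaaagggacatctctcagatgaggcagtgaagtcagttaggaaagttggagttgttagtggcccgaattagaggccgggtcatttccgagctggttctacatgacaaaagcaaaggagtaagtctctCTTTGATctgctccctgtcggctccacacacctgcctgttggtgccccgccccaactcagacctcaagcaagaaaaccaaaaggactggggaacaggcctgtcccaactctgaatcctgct
Tnfrsf19: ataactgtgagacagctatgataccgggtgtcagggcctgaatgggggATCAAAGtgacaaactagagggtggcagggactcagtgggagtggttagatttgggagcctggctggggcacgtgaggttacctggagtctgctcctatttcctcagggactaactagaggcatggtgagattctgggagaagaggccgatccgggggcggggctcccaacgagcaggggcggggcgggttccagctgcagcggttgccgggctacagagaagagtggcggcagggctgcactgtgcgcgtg
A match says only that the letters are there, and its absence says nothing of the factor.

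Axin2, Lef1 and Lgr5 shared 1 feature that no group mean shows, which is that tumor 6 was the highest tumor for each. The other targets were read the same way. Tumor 6 was the highest tumor for 5 of the 10 genes and for 5 of the 9 other target genes measured, beside 16.0% of all genes. It was also the highest tumor for 5 of 6 blood endothelium, 3 of 5 epidermis and 3 of 7 fat cell markers, and hyperplastic gland 3 was likewise the highest of its group for 5 of the 9 other targets, beside 3793 of all 27030 genes. Nkd2, a feedback inhibitor, was 9.93 in tumor 6, against 7.48 ± 0.57 (SD, n = 5) in the other tumors. Notum, which removes the lipid from Wnt ligands, was 7.33 in tumor 6, and no other array exceeded 6.63. Nkd1 was 7.69 in tumor 6 and at most 7.56 elsewhere. The secreted inhibitor Wif1 was 10.27 in tumor 6, against 7.20 to 7.63 in normal glands. These genes were singled out after their values were seen, and none of them was called over all 6 tumors.

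Tumor 1 shared part of this pattern and carried the largest lone value of the pathway. Wnt1, the founding mammary oncogene of the family, was 10.28 in tumor 1 and between 5.35 and 5.94 in all 17 other arrays, 4.63 above the next tumor, a 24.8-fold step. Over all 6 tumors its difference from normal glands was 0.79 ± 0.60 (limma adjusted p = 0.356). Znrf3, a ligase that clears Frizzled receptors, was 8.70 in tumor 1 and 8.68 in tumor 6, with the other 4 tumors between 7.06 and 7.52. Tnfrsf19, a receptor known as a beta-catenin target, was 8.45 in tumor 1 and 8.37 in tumor 6, with the other 4 between 6.30 and 6.64. Nkd2 was 8.47, Wif1 9.28 and Lgr6, an R-spondin receptor, 9.93 in tumor 1. Lgr6 was also 9.15 in tumor 6, 8.98 in tumor 5 and 9.20 in hyperplastic gland 3. Axin2 in tumor 1, at 7.28, did not share the high values of these targets and lay just under the lowest normal gland, and Lef1 was 5.80.

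Rspo3, an R-spondin that strengthens Wnt signals at the receptor, stood alone in tumor 4 in the same manner. It was 7.64 in tumor 4, 5.67 in tumor 3 and between 4.79 and 5.47 in the other 16 arrays, which lie near or under the detection level. In tumor 4 Axin2 was 6.74 and Lef1 5.68, the lowest values of both among all arrays, and Sfrp1 was 11.19, the highest. A gap of over 1 log2 unit between the highest and the next tumor was found at 551 of all 27030 genes (2.04%) and at Wnt1, Rspo3, Axin2, Lef1, Nkd2, Dkk2 and Sfrp4 among the 70 Wnt genes. Of the 551 genes, 164 were highest in tumor 6, 148 in tumor 3, 92 in tumor 5, 72 in tumor 4, 45 in tumor 1 and 30 in tumor 2. Tumor 6 thus stood alone at many genes outside the pathway, and it held the gaps of Axin2, Lef1, Nkd2 and Sfrp4. Each of these lone values rests on 1 array and was singled out after it was seen, and no test was made of them.

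Skin genes were high in some of the same arrays. The mean of 5 epidermis markers was 7.73 in tumor 6 and 7.01 in tumor 1, with the other 4 tumors between 5.95 and 6.14. It was 9.39 in hyperplastic gland 3, where Wif1 was 10.55, Nkd2 8.51 and Lgr6 9.20 but Axin2 7.45 and Notum 6.63. In normal gland 5 the epidermis mean was 6.99, and Wif1 was 7.20. Genes of the hair follicle inner root sheath stood alone in tumor 6: Tchh was 11.27, Krt73 11.02 and Krt27 10.17 there, and at most 4.64, 6.22 and 5.85 in all other arrays. The part of skin or hair cells in the values of the Wnt genes in tumors 1 and 6 and hyperplastic gland 3 was not tested.

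**Figure D4:**
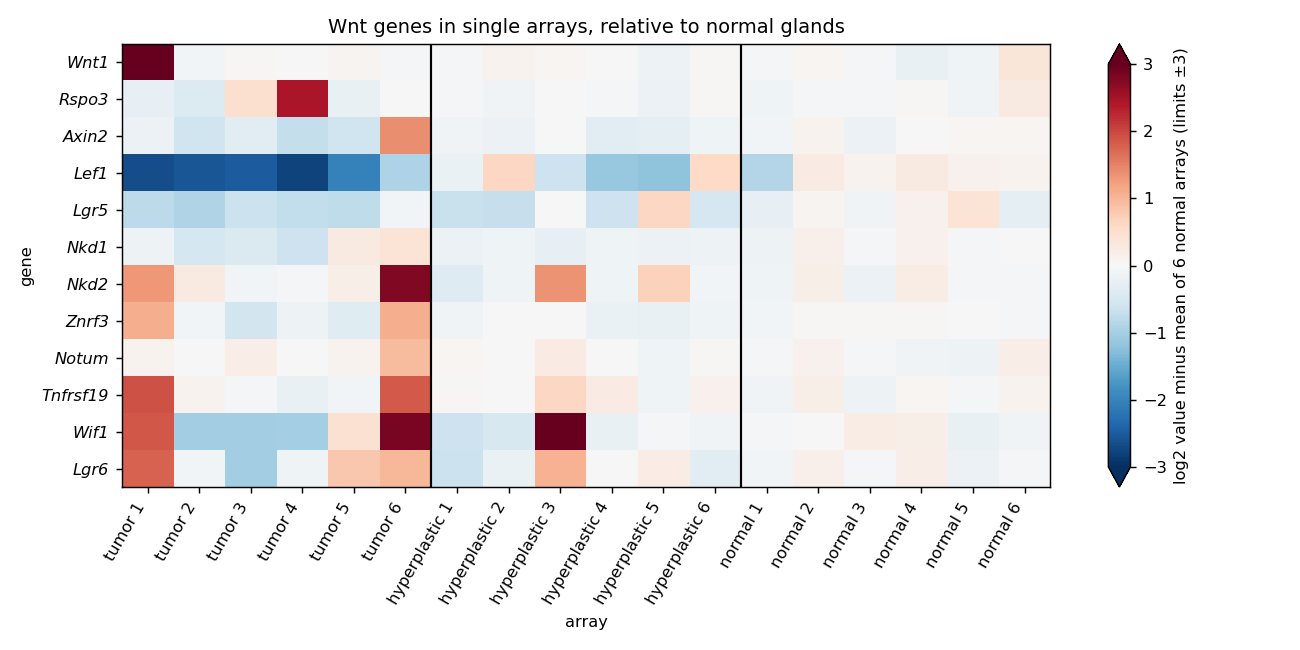
Log2 RMA value minus the mean of the 6 normal glands (colour, limits at ±3) for 12 Wnt genes (rows) in each array (columns: tumors, hyperplastic glands, normal glands). Wnt1 stands out in tumor 1, Rspo3 in tumor 4 and Axin2 in tumor 6, while Znrf3 and Tnfrsf19 stand out in tumors 1 and 6, and Nkd2 and Wif1 in tumors 1 and 6 and in hyperplastic gland 3.

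Around the 10 genes, 60 other genes of the pathway were measured of 77 listed by role. In tumors 18 of the 60 were higher and 3 lower than in normal glands (19.5% and 12.7% of all genes), and 12 were higher and 3 lower than in hyperplastic glands (11.9% and 8.57% of all genes). Genes of the list above the detection level were 10 other ligands, 4 of ligand release and R-spondins and 15 receptors. The rest were 7 inhibitors, 10 relay genes and 8 other targets. In the fit to the 17049 genes above the detection level, 4781 were higher and 2928 lower than in normal glands, with 16 and 3 from this list. The list's share of higher genes there lay near that of all genes in the fit. Against hyperplastic glands 3106 were higher and 2188 lower, with 13 and 3 from this list. With centring on reference genes the counts were 9 higher and 5 lower against normal glands, and 9 higher and 2 lower against hyperplastic glands. Over all genes they were then 3068 higher and 4836 lower, and 2337 higher and 2318 lower. Between hyperplastic and normal glands limma called 0 of the 60, beside 1.01% of all genes called higher and 0.655% called lower. An unadjusted p under 0.05 was found there at 5 of the 60 (8.33%), beside 13.6% of all genes. The median log2 change of the 60 was 0.17 against normal glands and 0.13 against hyperplastic glands, beside 0.04 and 0.04 over all genes. Genes of the list on autosomes after chromosome 16, and others without a cluster of their own, such as Ctnnb1, Apc, Tcf7 and Ccnd1, were not analysed here.

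Porcn and Wls, genes of ligand release, were higher in tumors than in both other groups. Porcn, the enzyme that attaches the lipid to Wnt ligands, was 7.80 to 8.59 in tumors, against 7.20 to 7.61 in hyperplastic glands and 7.21 to 7.50 in normal glands, and no tumor overlapped either group. It was 0.78 ± 0.10 higher than in normal glands (limma adjusted p = 1.78e-05). Wls, the carrier that brings ligands to the cell surface, was 0.56 ± 0.16 higher than in normal glands (adjusted p = 0.0127) and 0.70 ± 0.16 higher than in hyperplastic glands (adjusted p = 0.00508). Rspo1 was lower in tumors than in hyperplastic glands, at a difference of -0.71 ± 0.24 (adjusted p = 0.0473). Of the 6 genes of ligand release and R-spondins, 2 were higher and 0 lower than in normal glands (19.5% and 12.7% of all genes), and 2 were higher and 1 lower than in hyperplastic glands (11.9% and 8.57%).

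Fzd4, a Frizzled receptor with a known role in blood vessels, had the largest change of the 60. Tumors 1 to 6 had values of 6.81, 7.71, 6.89, 7.14, 7.57 and 7.49, hyperplastic glands ran from 8.83 to 10.05 and normal glands from 9.08 to 9.84, with no overlap. The difference was -2.33 ± 0.19 from normal glands (limma adjusted p = 1.41e-07) and -2.09 ± 0.19 from hyperplastic glands (adjusted p = 1.1e-06). Blood endothelium markers and fat cell markers fell beside it, 6 of 6 and 7 of 7 measured, and their part in the Fzd4 values was not tested. Ror2, a receptor of Wnt5a, was higher in tumors by 0.62 ± 0.17 than in normal glands (adjusted p = 0.00995) and by 0.66 ± 0.17 than in hyperplastic glands (adjusted p = 0.011). Tumor 1, highest for Wnt5a, was also highest for Ror2, at 8.36, and the other tumors ran from 6.88 to 7.71. Fzd3 was 0.66 ± 0.23 higher than in normal glands (adjusted p = 0.0395). Of 15 receptors 5 were higher and 1 lower in each tumor comparison, where 19.5% and 12.7% of all genes were called against normal glands and 11.9% and 8.57% against hyperplastic glands.

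Among the secreted inhibitors Sfrp4, a relative of Sfrp1, was lower in tumors, at a difference of -1.59 ± 0.27 from normal glands (limma adjusted p = 0.000168), with values of 5.94 to 7.90 in tumors and 7.89 to 8.75 in normal glands. Sostdc1, an inhibitor of Wnt and BMP signals, was 1.24 ± 0.26 higher (adjusted p = 0.00138), at 8.08 to 8.46 in tumors 1, 2, 4 and 5 but 6.47 in tumor 3 and 6.86 in tumor 6, against 6.27 to 6.57 in normal glands. Frzb was called higher than in normal glands (adjusted p = 0.0486), but all 6 normal glands and 4 of the 6 tumors lay under the detection level, so no size is given. Of 9 inhibitors 2 were higher and 1 lower than in normal glands, and 1 was higher and 1 lower than in hyperplastic glands, shares near the 19.5% and 12.7%, and the 11.9% and 8.57%, of all genes.

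Inside the cell 6 of the 10 relay genes measured were higher than in normal glands (19.5% of all genes), 4 were higher than in hyperplastic glands (11.9% of all genes) and 0 were lower in either. The largest was Ctnnbip1, a protein that keeps beta-catenin from TCF factors, at 0.43 ± 0.06 above normal glands (limma adjusted p = 3.06e-05), followed by Dvl3, a Dishevelled protein, at 0.39 ± 0.07 (adjusted p = 0.000493), and Pygo2, a beta-catenin co-factor, at 0.32 ± 0.07 (adjusted p = 0.00182). Bcl9, which joins beta-catenin to Pygopus proteins, was called against hyperplastic glands as well, at 0.20 ± 0.06 (adjusted p = 0.0299). Among the 9 other target genes 2 were higher than in normal glands, a share near the 19.5% of all genes, and 0 than in hyperplastic glands (11.9% of all genes). Cd44, a hyaluronan receptor, was 1.25 ± 0.21 higher than in normal glands (adjusted p = 0.000171), at 9.63 to 10.49 in tumors, against 8.71 to 9.03 in normal glands, and Ascl2 was 0.23 ± 0.08 higher (adjusted p = 0.03). Among the 11 other ligands only Wnt3 (higher, adjusted p = 0.0395) and Wnt16 (lower, adjusted p = 0.0393) were called against normal glands. All 6 normal glands and 5 of the 6 tumors for Wnt3, and 4 of the 6 tumors for Wnt16, lay under the detection level, so no sizes are given. These 2 calls stand beside 19.5% of all genes higher and 12.7% lower. Of these ligands 0 were called against hyperplastic glands (11.9% of all genes higher and 8.57% lower), where 1 had an unadjusted p under 0.05, beside 31.3% of all genes.

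**Figure D5:**
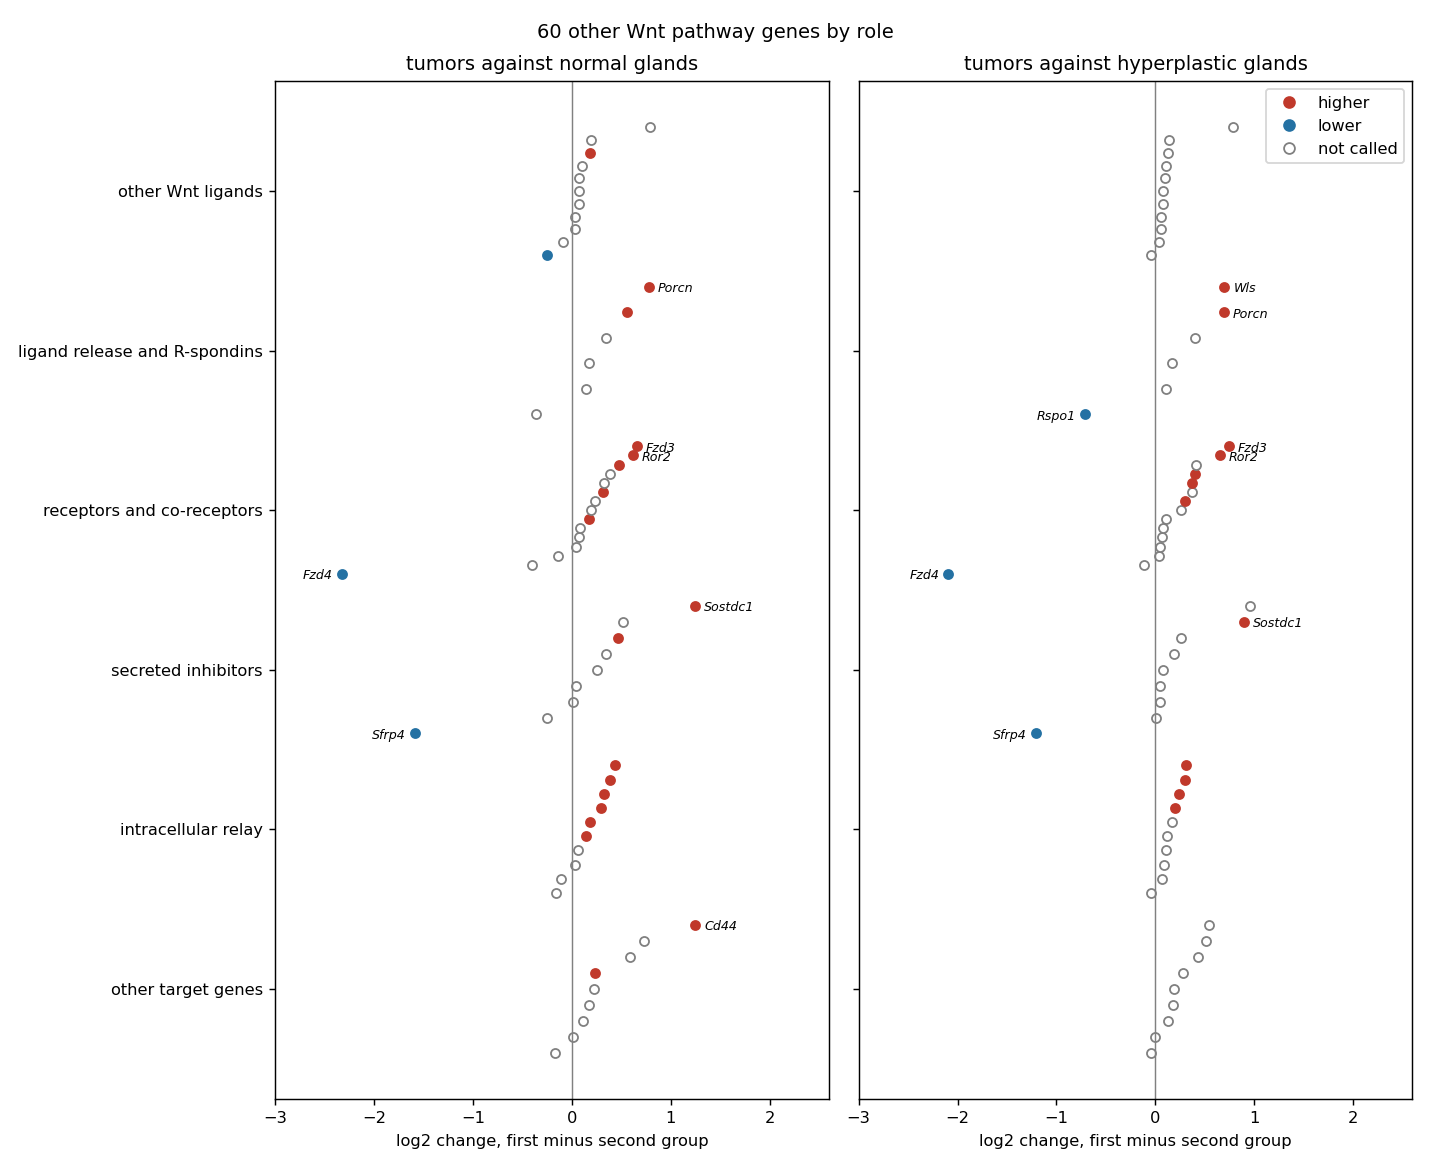
Log2 change (horizontal axes) of 60 other Wnt pathway genes in tumors against normal glands (left) and tumors against hyperplastic glands (right), grouped by role on the vertical axis; filled points passed an adjusted p of 0.05 in limma. Most points lie a little above 0, and Fzd4 and Sfrp4 lie far below.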

How the data were processed

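Per the labels, each of 18 total RNA samples was hybridised to its own Affymetrix array, and the submitters' processing notes list Partek, RMA and Affymetrix Expression Console with no version. The study's methods name another normalization program and a Gene 1.0 ST array, whose name does not go with the identifiers in the table, so the array is called whole-transcript here. The deposited log2 values were made by the authors with RMA, which subtracts background, gives all arrays the same distribution and summarises the probes of a transcript cluster; differences near background are compressed, and a change in total RNA per cell is not measurable. The number of arrays limits the precision. A second table held identical values at all 58776 shared entries. Apart from 2 entries, autosomes end at chromosome 16, and later ones were not analysed here.

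Of 58803 clusters 29266 were named by the platform annotation, 27309 with 1 symbol, of which the highest was kept for 198 genes with several, leaving 27030 genes; 19869 clusters were matched to a RefSeq gene ID. The 18 arrays entered 1 limma model (version 3.58.1, R 4.3.3) with a mean for each of the 3 groups, moderated two-sided tests, p-values adjusted by the Benjamini-Hochberg method over all genes, and calls at an adjusted p under 0.05. The fit was tested on simulated data. Changes are first minus second group, with the SE from limma. The 10 genes, the lists of other Wnt genes and the cell type markers were chosen with earlier results of these data known. All 10 genes were named, and from each other list the 3 called genes with the largest change in each comparison or, where 5 or fewer were called, all of them, besides genes said to be chosen after their values were seen. The labels record no batch. Alternatives were fits to the 2 groups compared, to genes above the detection level, with other centrings, with cluster means, with array weights, with a trended robust prior, with replicate number as a block, without each array, and at the methods' threshold (a log2 change over 2 and an unadjusted p under 0.05). Leaving out tumors 3 and 6 and hyperplastic gland 3 together was added after seeing the data.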

Additional observations from a re-analysis of the deposited data

Results flagged for a closer look

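In each group of 6 arrays, the gap of the highest or lowest array to its neighbour was divided by the range of the group and called large above Dixon's 95% critical value. Over all 70 Wnt genes 17 of 210 groups were past it, where about 1 in 20 groups of normally distributed values would be. The share past it over all genes was not taken, so the count says nothing of an excess in the pathway. The 10 below are those of the 36 genes named here, some of which were singled out for lone values, so their number is no evidence of a pattern. Wnt1 in tumor 1 had a ratio of 0.965, at 10.28 against 5.66 in the next tumor. Tumor 6 stood high at Axin2 (0.742), Notum (0.78) and Lgr5 (0.687), the last at 5.71 with the other tumors under the detection level of 5.36. Tumor 4 stood high at Rspo3 (0.693) and Porcn (0.638) and low at Wnt2 (0.656). Hyperplastic gland 3 stood high at Wif1 (0.85), at 10.55 against 7.35 in the next hyperplastic gland. Normal gland 1 stood low at Lef1 (0.867), at 7.59 against 8.57 in the next normal gland, and normal gland 6 stood high at Rspo3 (0.63), at 5.47 against 5.22.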

How the results depend on the processing

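Over 810 refits of the 10 genes' changes under other settings, 760 kept their direction and side of the threshold, 28 lost the call, 9 gained one and 13 turned direction. At the methods' threshold 1 of the 10 genes passed against normal glands (Lef1, 8 called by limma) and 0 against hyperplastic glands (4 called), and 1 of the 60 other Wnt genes passed in each (21 and 15 called); over all genes this threshold kept 271 genes against normal glands and 145 against hyperplastic glands, with 7 between hyperplastic and normal glands. Fitting only the groups compared called 13 of the 60 against normal glands, beside 7717 of all genes. Between hyperplastic and normal glands it called 3 of the 60, where array weights called 5 and the main model 0. Over all genes these 2 settings called 1524 and 2371 genes between hyperplastic and normal glands, against 451. With 1 array left out, the 10 genes gave 5 to 8 calls against normal glands (5 without tumor 4), 4 to 7 against hyperplastic glands (7 without tumor 6) and 0 between hyperplastic and normal glands, and the 60 gave 13 to 21 (13 without normal gland 1, 3 or 5), 11 to 17 and 0 to 1 (1 without tumor 3). Over all genes the calls then ranged from 7861 to 9266 against normal glands and from 4559 to 6016 against hyperplastic glands. Between hyperplastic and normal glands they ranged from 175 to 610. Axin2 against hyperplastic glands, 0.00 in the main model, turned to -0.018 with centring on reference genes, -0.058 with array weights and -0.32 without tumors 3 and 6 and hyperplastic gland 3, and ranged from -0.31 to 0.11 with 1 array left out. Other small differences that turned were Wnt6 (hyperplastic against normal, -0.049 with centring on reference genes, -0.014 to 0.077 with 1 array left out), Wnt2 (the same comparison, -0.082 to 0.0091), Sfrp1 (the same comparison, -0.0795 to 0.24) and Wnt5b (tumors against hyperplastic, -0.14 to 0.015). Centring on 7 reference genes, of which 3 were higher and 2 lower in tumors than in normal glands, moved the share of higher genes among all called from 60.6% to 38.8% against normal glands and from 60.8% to 21.5% between hyperplastic and normal glands (48.3% with centring on array medians); it ended the calls of Wnt10a (adjusted p = 0.218) and Sfrp1 (adjusted p = 0.0625) against normal glands, as did fitting only the groups compared (adjusted p = 0.0956 and 0.074). The cause of these shifts was not tested. The replicate block left 8 of the 10 genes called against normal glands and 4 against hyperplastic glands, and 20 and 14 of the 60. Over all genes it called 8769 and 5605. Same-numbered arrays correlated at -0.19 to 0.41 over 18 pairs, 7 of them over 0.1. Differently numbered arrays were not correlated for reference, so whether the numbers pair the samples is not known.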

Other observations

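Dkk2, a secreted inhibitor that binds the co-receptor Lrp6, was 8.50 in tumor 3 and 7.16 in tumor 6, while tumors 1, 2, 4 and 5 had values between 5.56 and 6.11, hyperplastic glands lay between 5.39 and 5.70, and normal glands between 5.84 and 6.23. Over all 6 tumors its difference was 0.51 ± 0.35 from normal glands (limma adjusted p = 0.298) and 0.96 ± 0.35 from hyperplastic glands (adjusted p = 0.0621). Wls was also highest in tumor 3, at 9.58, the tumor whose epithelial markers were lowest and whose skeletal muscle markers were the highest of the tumors. Frzb was 6.05 in tumor 5 and 4.72 to 5.53 in the other tumors, against 4.72 to 4.87 in normal glands.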
